A study of Mus musculus with 6 samples.

Results

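The expression of 10 genes of the elastic fibre system was measured in the RNA of cultured mouse macrophages with and without a deletion of the transcription factor gene Xbp1. They were taken by gene symbol from the table of 54532 genes, and all 10 have a row: Eln, Fbn1, Fbln1, Fbln2, Fbln5, Efemp2, Mfap2, Mfap4, Mfap5 and Emilin1. The set was drawn up with the differences between the groups already known, so its fold changes, and the calls these genes get in the fit over all genes, are given as a description and not as evidence. The cells were bone marrow-derived macrophages, grown in culture from bone marrow of C57BL/6 mice aged 32 to 34 weeks. XKO macrophages carried the genotype written Xbp1ΔMf, a deletion of Xbp1 in macrophages, and XWT macrophages carried the floxed, undeleted alleles Xbp1FL/FL. The labels name no Cre driver. Both groups had received lipopolysaccharide as a priming stimulus, followed by 48 h in culture medium taken from wild-type primary hepatocytes. RNA was sequenced from 3 libraries of each group, and whether these came from separate animals or cultures is not given, so their spread may be technical.

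Elastic fibres give skin, lung and vessel walls their recoil. A core of cross-linked elastin, encoded by Eln, is deposited on microfibrils built mainly of fibrillin-1 (Fbn1) and decorated by the glycoproteins MAGP-1 (Mfap2) and MAGP-2 (Mfap5). Fibulin-5 (Fbln5) and fibulin-4 (Efemp2) bring elastin and the lysyl oxidases together during assembly, and EMILIN-1 (Emilin1) lies at the boundary between elastin and microfibrils. Fibroblasts and smooth muscle cells are the usual makers of these proteins, while macrophages are better known for degrading them.

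The promoters of 3 of these genes are shown because they mark the range of the data: Fbln2 is a fibulin gene with a large relative difference between the groups and many reads in XWT, Fbn1 is the main microfibril gene, and Emilin1 was the most abundant gene and differed least. Each run holds the 250 bases before a RefSeq start in GRCm38.p6, read 5′ to 3′ on the gene's strand. By the gene coordinates given below, all 3 windows lie inside the gene, downstream of its annotated 5′ end. Each thus precedes a RefSeq start, and not the outermost end of the annotated gene. Capitals mark matches to the motifs described next.
Fbln2, chr6:91212514-91212763, plus strand: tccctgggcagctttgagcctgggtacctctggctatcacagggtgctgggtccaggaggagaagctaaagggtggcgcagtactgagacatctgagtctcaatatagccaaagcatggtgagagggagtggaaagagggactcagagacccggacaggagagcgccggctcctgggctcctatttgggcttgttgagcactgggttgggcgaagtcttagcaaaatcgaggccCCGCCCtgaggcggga
Fbn1, chr2:125506439-125506688, minus strand: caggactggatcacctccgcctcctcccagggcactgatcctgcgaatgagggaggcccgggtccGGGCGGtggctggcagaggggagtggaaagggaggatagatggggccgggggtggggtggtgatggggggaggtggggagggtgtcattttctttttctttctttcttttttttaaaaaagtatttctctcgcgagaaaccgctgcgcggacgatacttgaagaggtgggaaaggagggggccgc
Emilin1, chr5:30913536-30913785, plus strand: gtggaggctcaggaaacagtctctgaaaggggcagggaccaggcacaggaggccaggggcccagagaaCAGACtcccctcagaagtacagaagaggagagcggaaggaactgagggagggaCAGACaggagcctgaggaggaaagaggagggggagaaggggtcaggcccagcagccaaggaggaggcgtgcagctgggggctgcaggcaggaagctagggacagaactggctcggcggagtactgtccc

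The 6 motifs searched on both strands in these windows were the SP1 GC box GGGCGG, the SMAD element CAGAC, the TEAD motif GGAATG, the TATA box TATAAA, the unfolded protein response element core TGACGTGG that XBP1 is known to bind, and the ACGT core, which lies within that element. RefSeq windows were found for 7 of the 10 genes (12 windows); Eln, Mfap4 and Mfap5 had none in the table used. The 12 windows are not all separate: the 2 windows of Fbln1 overlap, as do 2 of the 3 windows of Efemp2, and a match in the shared bases counts in both. A GC box was present in 8 of the 12 windows, against 32.7% of all 32851 windows. It was present in 6 of the 7 genes, Emilin1 being the exception. The percentages are per window, so they do not compare with counts of genes, which have up to 3 windows. The 12 windows held 46.4% to 78.8% G and C, against a median of 52.4% over all windows, and the base content was not matched. The SMAD element was present in 6 of the 12 windows and in 5 of the 7 genes, against 42.2% of all windows. The ACGT core was present in 3 of the 12 windows, of Fbln1 and Efemp2 and so of 2 genes, against 26.9% of all windows. The TEAD motif was present in 1 window, of Mfap2 (12.6% of all windows), and the TATA box and the unfolded protein response element core in 0 of 12 (12.4% and 0.563% of all windows). These are matches of letters, and no binding was measured.

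The 6 libraries held 28354866 to 30891729 counts. Xbp1 stood at 76.8, 79.4 and 76.5 CPM in XKO 1 to 3, against 159, 157 and 132 CPM in XWT 1 to 3 (CPM, read counts relative to the TMM-scaled library size), so all XKO libraries lay below all XWT libraries. The count is for the gene as a whole, and the deleted part was not counted separately. How complete the deletion was is therefore not known from it. Of 10 macrophage markers all 10 were detected in every library, with a summed level of 26066 to 27776 CPM in XKO and 40586 to 48895 CPM in XWT. Of the 10, 8 were not called and 2 fell in XKO, against 7.99% of all tested genes called lower. These were Lyz2, which made up most of the sum (14274 ± 583 CPM in XKO and 31140 ± 3553 CPM in XWT), and C1qa (345 ± 24.3 CPM in XKO and 570 ± 96.3 CPM in XWT, SD, n = 3 each). Genes used as markers of other cells were also read, and which cells made these reads was not tested. The 14 markers of fibroblasts and stroma, such as the collagen genes Col1a1 and Col1a2, summed to 61.8 to 76.1 CPM in XKO. In XWT they summed to 642 to 763 CPM. In each library 2 to 5 of these 14 markers had no read. Of 8 hepatocyte markers, 6 (Alb, Apoa1, Ttr, Serpina1c, Fgb and Cyp2e1) had no read in any library, and Trf was lower in XKO (log2 fold change -0.86 ± 0.200, SE; edgeR adjusted p = 0.013). Of 8 endothelial markers 4 were tested and 1, Pecam1, was lower (-0.54 ± 0.118, SE; edgeR adjusted p = 0.00877), a call that ended without XKO 2 (0.0682), as that of Trf did without XKO 1 (0.0516) or XKO 3 (0.0621). The other 3 tested endothelial markers, named after their values were seen, were not called. Kdr, Cdh5 and Vwf had log2 fold changes of 0.42, 0.27 and 0.13, and the median of the tested endothelial markers was 0.20. Of 8 epithelial and mesothelial markers none had enough reads for the fit. The calls of Trf and Pecam1 stand beside 7.99% of all tested genes called lower.

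Eln itself was not detected. The elastin gene (chr5:134702593-134747323, minus strand, protein-coding) had 0 counts in each of the 3 XKO and the 3 XWT libraries. A count of 0 allows up to 3 counts, which is 0.0967 to 0.0980 CPM in an XKO library and 0.0960 to 0.111 CPM in an XWT library. These limits cover counting error only. No elastin transcript was thus measurable at this depth, while genes of the microfibril and of fibre assembly were read.

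Fbn1 (chr2:125300594-125507993, minus strand), which encodes fibrillin-1, the main building block of microfibrils, was read at 3.64, 3.22 and 3.76 CPM in XKO 1 to 3, against 23.6, 20.5 and 29.2 CPM in XWT 1 to 3. The 3 XKO libraries lay close together and far below every XWT library, among which XWT 3 was highest. The log2 fold change of XKO over XWT was -2.79 ± 0.142 (SE, n = 3 each), a 6.89-fold lower level. Its coefficient of variation was 7.98% in XKO and 18.0% in XWT. The overlapping gene Gm9913 on the other strand averaged 0 counts in XKO and 0.667 in XWT. Whether its reads were counted for Fbn1 was not tested.

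The 3 genes of microfibril-associated proteins were near the limit of detection, and none passed the filter for the fit. Mfap2 (chr4:141010418-141015984, plus strand) had 2, 2 and 2 counts in XKO 1 to 3, against 2, 6 and 8 counts in XWT 1 to 3. XWT 1 had the same count as each XKO library. Over the group sums of 6 counts in XKO and 16 in XWT the scaled ratio was 0.357, with an exact 95% interval of 0.114 to 0.960 for counting error. Mfap5 (chr6:122505845-122529290, plus strand) had 4, 2 and 2 counts in XKO, against 5, 3 and 2 counts in XWT. The groups overlapped, and the ratio of 0.761 had an exact 95% interval of 0.261 to 2.14, so a difference was not detectable at this depth. Mfap4 (chr11:61485431-61488900, plus strand), whose protein binds elastin and fibrillin fibres, had 1 read in XKO 1 and none in the other 5 libraries. It shares 89 bases with Mapk7 on the opposite strand, which averaged 1337 counts in XKO and 1267 in XWT.

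**Figure D1:**
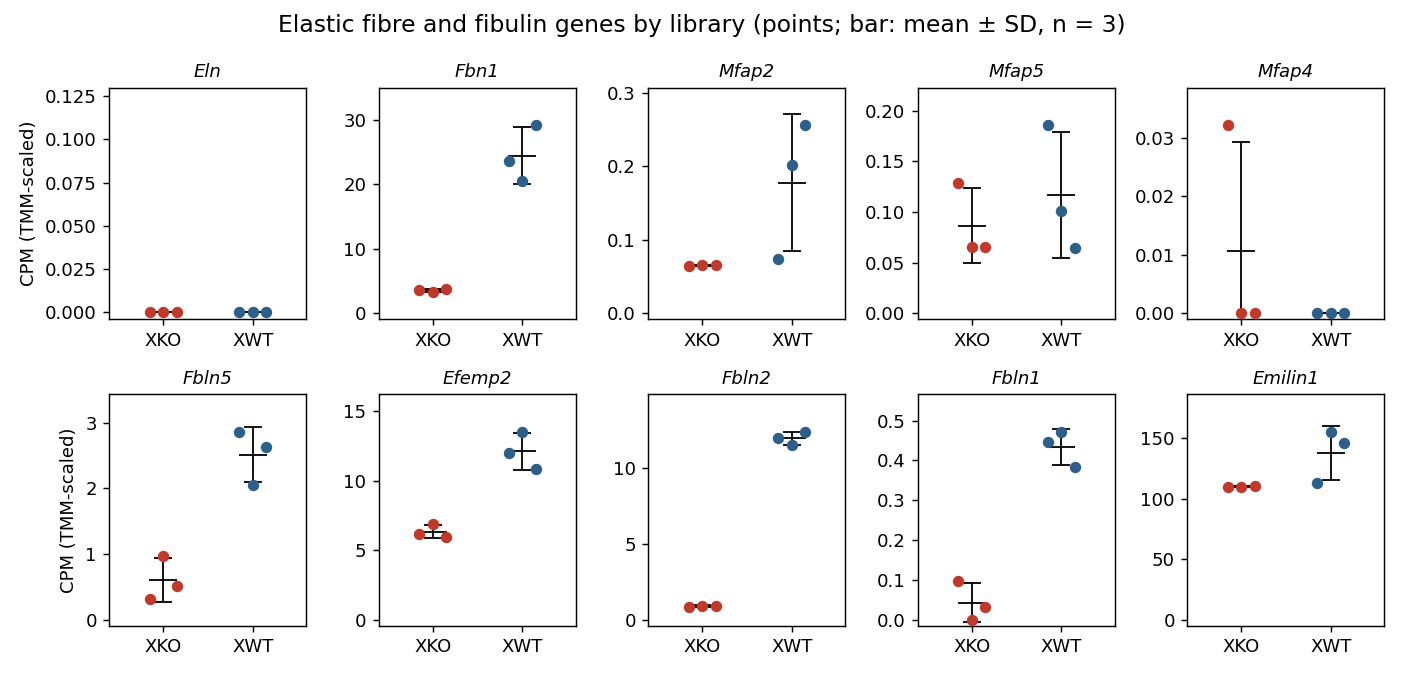
TMM-scaled CPM of the 10 genes (y axis, a separate linear scale for each gene) in the 3 XKO and the 3 XWT libraries; points are libraries, and bars the mean and SD. Fbn1, Fbln2, Efemp2, Fbln5 and Fbln1 lie lower in all XKO libraries, the lowest Emilin1 value of XWT lies close to the XKO values, and Eln is at 0 throughout.

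The 2 fibulins with a known role in elastic fibre assembly were both lower in XKO, to unequal extents. Fbln5 (chr12:101746565-101819055, minus strand), which tethers elastin to cells and microfibrils, stood at 0.322, 0.976 and 0.523 CPM in XKO 1 to 3, against 2.86, 2.05 and 2.63 CPM in XWT 1 to 3. XKO 2 was the highest of the XKO libraries and still lay below every XWT library, and the coefficient of variation was 55.2% in XKO and 16.4% in XWT. The log2 fold change was -2.04 ± 0.334 (SE, n = 3 each), a 4.12-fold lower level. Efemp2 (chr19:5473973-5481853, plus strand), the fibulin-4 gene, without which mice fail to form elastic fibres, stood at 6.15, 6.86 and 5.98 CPM in XKO, against 12.0, 13.5 and 10.9 CPM in XWT. No XKO library reached the lowest XWT library. The log2 fold change was -0.94 ± 0.123 (SE, n = 3 each), a 1.91-fold lower level.

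The genes of fibulin-2 and fibulin-1 were also lower in XKO, the first with many reads and the second with few. Fbln2 (chr6:91212455-91272540, plus strand), a component of vessel and basement membrane zones that can bind elastin and fibrillin-1, stood at 0.838, 0.943 and 0.947 CPM in XKO 1 to 3, against 12.0, 11.6 and 12.4 CPM in XWT 1 to 3. Both groups were tight, with coefficients of variation of 6.81% in XKO and 3.49% in XWT. The log2 fold change of -3.71 ± 0.151 (SE, n = 3 each) is a 13.1-fold lower level. Fbln1 (chr15:85205949-85286535, plus strand), whose protein sits within elastic fibres and binds fibronectin, was rare, with 3, 0 and 1 counts in XKO, against 12, 14 and 12 counts in XWT. The groups did not overlap, but only 4 reads stood behind the XKO value. The scaled ratio of the sums was 0.100, with an exact 95% interval of 0.0260 to 0.278 for counting error, and the fitted log2 fold change was -3.20 ± 0.696 (SE, n = 3 each). It was -4.42 without XKO 1 and -2.66 without XKO 2, so the place of Fbln1 among the 6 fitted genes is not settled.

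Emilin1 (chr5:30913402-30921277, plus strand), the EMILIN family member of the elastin and microfibril interface and an inhibitor of TGF-β precursor processing, was the most abundant of the 10 genes and differed least of the 6 in the fit. It stood at 110, 110 and 111 CPM in XKO 1 to 3, against 113, 155 and 146 CPM in XWT 1 to 3. XWT 1 was only slightly above the XKO libraries, while XWT 2 and XWT 3 stood well above them. The coefficient of variation was 0.378% in XKO and 16.1% in XWT. The log2 fold change was -0.33 ± 0.097 (SE, n = 3 each), a 1.25-fold lower level. Its call in the fit over all genes ended without any 1 of XKO 1, XKO 2, XKO 3, XWT 2 or XWT 3, with scaling by library size alone, with limma-voom and with a filter of at least 1 CPM in 3 libraries.

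Of the 10 genes, 6 passed the filter on low counts and were fitted, and all 6 were called lower in XKO (edgeR quasi-likelihood test, threshold 0.05 on the adjusted p), against 7.99% of all 14333 genes tested (3.63% to 14.8% with 1 library left out). Over all genes 860 were called higher and 1145 lower, and 1158 and 749 with scaling by library size alone. The 6 genes had a median log2 fold change of -2.41, against 0.00 over all genes tested. Since the genes were chosen from this comparison, and the filter kept those with reads in at least 1 group, these counts only describe the set. XKO and XWT values lay apart for 6 of the 6, against 36.2% of all tested genes. Called genes became 4 of 6 without XKO 2 and 4 of 6 without XKO 3, where Fbln1 and Emilin1 were not called.

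Levels of different genes were compared per length, on the FPKM scale as deposited by the authors. In XKO, Emilin1 averaged 22.2 FPKM, followed by Efemp2 at 2.38, Fbn1 at 0.290, Fbln2 at 0.142, Fbln5 at 0.0873, Mfap2 at 0.0533, Mfap5 at 0.0239, Fbln1 at 0.00982 and Mfap4 at 0.00556 FPKM. In XWT the order was Emilin1 at 27.9, Efemp2 at 4.57, Fbn1 at 2.01, Fbln2 at 1.88, Fbln5 at 0.363, Mfap2 at 0.146, Fbln1 at 0.0991 and Mfap5 at 0.0325 FPKM, with Mfap4 and Eln at 0. Neighbours whose library values overlapped in XKO were Fbln2 with Fbln5, Fbln5 with Mfap2, and all neighbours from Mfap5 down to Eln. In XWT they were Fbn1 with Fbln2 and Mfap2 with Fbln1. In both groups Emilin1 stood far above the others. Fbn1 stood above Fbln2 in every XKO library, whereas their XWT levels overlapped.

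The make-up of the summed level differed between the groups. Emilin1 took 88.1% ± 0.664 of the summed FPKM of the 10 genes in XKO and 75.2% ± 2.96 in XWT (SD, n = 3 each). Fbn1 took 1.15% ± 0.0982 in XKO and 5.49% ± 1.16 in XWT, and Fbln2 took 0.564% ± 0.0360 in XKO and 5.13% ± 0.728 in XWT (SD, n = 3 each). Without Emilin1, the other genes summed to 2.92, 3.20 and 2.85 FPKM in XKO 1 to 3, against 8.98, 9.23 and 9.07 FPKM in XWT 1 to 3. Those sums were close to each other within each group and far apart between them. Shares and sums come from the same values of the chosen genes, and Emilin1 is the fitted gene that differed least. They are therefore no further result about these genes.

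**Figure D2:**
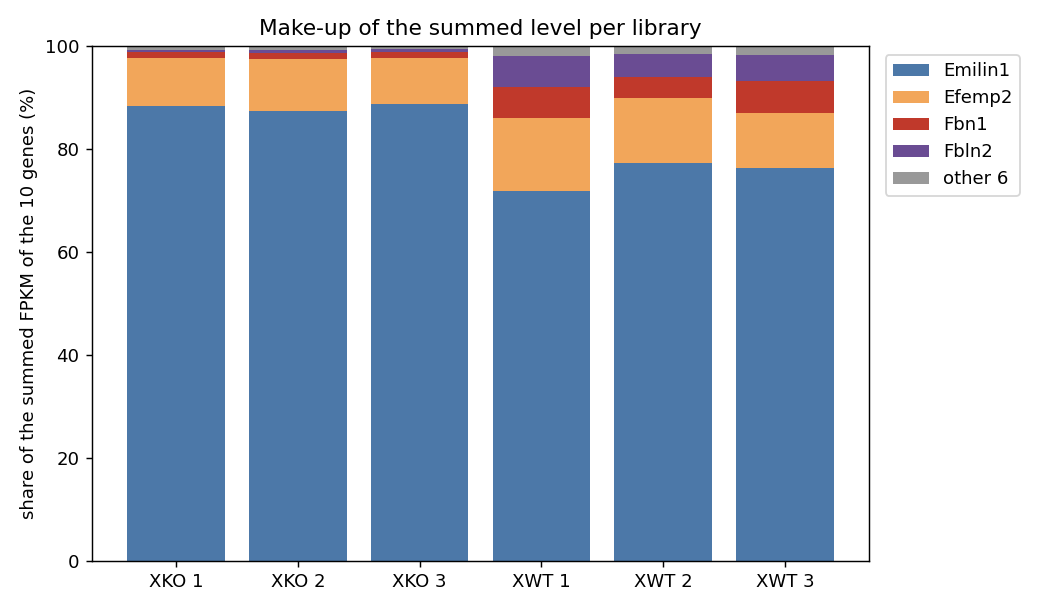
Share of each gene in the summed FPKM of the 10 genes (y axis, percent) for the 3 XKO and the 3 XWT libraries; bar segments are genes, with the 6 rarest pooled. Emilin1 averages 88.1% in XKO and 75.2% in XWT, and the Fbn1 and Fbln2 segments are narrower in XKO.

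The tested markers of stromal cells, like the fitted genes, were lower in XKO. Of the 14 markers, 8 were tested and all 8 fell in XKO (edgeR quasi-likelihood test, adjusted p under 0.05; 7.99% of all tested genes were called lower), with a median log2 fold change of -3.35. The other 6 had too few reads, and Lum and Dpt, which mark many fibroblasts, had 0 counts in XKO and 1 count each in XWT. Pi16 had 17 counts over the XKO libraries and 21 over the XWT libraries, and Clec3b had 3 in XKO and 1 in XWT. Thy1 had 1 in XKO and 7 in XWT, and Twist2 had 0 in XKO and 6 in XWT. In CPM the groups overlapped for Pi16, Clec3b and Twist2. For Thy1 they lay apart only through scaling, since XKO 3 and XWT 1 had 1 count each. Over all tested genes the groups lay apart for 36.2%. Set against the XWT mean, the summed stromal markers stood at 10.9%, 8.81% and 10.2% in XKO 1 to 3. Fbln2 stood at 7.00%, 7.87% and 7.91%, Fbn1 at 14.9%, 13.2% and 15.4%, Efemp2 at 50.8%, 56.6% and 49.3%, and Emilin1 at 79.6%, 79.7% and 80.2% of their XWT means in the same libraries. Fbln5 stood at 12.8%, 38.8% and 20.8%, and Fbln1, with its few reads, at 22.3%, 0% and 7.53%. Fbln2 lay below the stromal sum in every XKO library, Fbn1, Fbln5, Efemp2 and Emilin1 lay above it in every one, and Fbln1 lay above it in XKO 1 and below it in XKO 2 and XKO 3.

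Expressed per 1000 CPM of summed stromal markers, a measure chosen after the values were seen, Fbln2 was 11.0 to 15.3 in XKO and 16.2 to 18.7 in XWT, and Fbn1 was 47.8 to 52.4 in XKO and 29.4 to 38.2 in XWT. On the same measure Efemp2 was 80.8 to 111 in XKO and 14.2 to 19.4 in XWT, and Emilin1 was 1441 to 1780 in XKO and 176 to 222 in XWT. Fbln5 was 4.23 to 15.8 in XKO and 2.95 to 4.45 in XWT, and Fbln1 was 0 to 1.27 in XKO and 0.504 to 0.694 in XWT. Both overlapped between the groups, and the other 4 genes did not. The stromal sum itself was 61.8 to 76.1 CPM in XKO and 642 to 763 CPM in XWT. A gene that fell less than this sum must rise on this measure, and one that fell more must fall. Whether the groups lie apart here is therefore no further result about these genes. The 10 smooth muscle and pericyte markers summed to 15.7 to 17.4 CPM in XKO and 66.9 to 76.8 CPM in XWT. Of the 10, 5 were tested: 4 were lower (Acta2, Myl9, Actg2 and, named after its value was seen, Cnn1), against 7.99% of all tested genes, and 1, Cspg4, was higher, against 6.00%. The other 5 had too few reads for the fit and are named for completeness. Tagln (22 counts over the XKO libraries and 28 over the XWT libraries), Myh11 (8 in XKO and 12 in XWT) and Rgs5 (3 in XKO and 5 in XWT) overlapped between the groups in CPM, and Notch3 (4 in XKO and 37 in XWT) and Des (1 in XKO and 16 in XWT) did not. Over all tested genes 36.2% did not overlap between the groups. In RNA from whole cultures, fewer cells of a type and less RNA per cell cannot be told apart. The part of these markers in the values of the 10 genes was not tested.

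**Figure D3:**
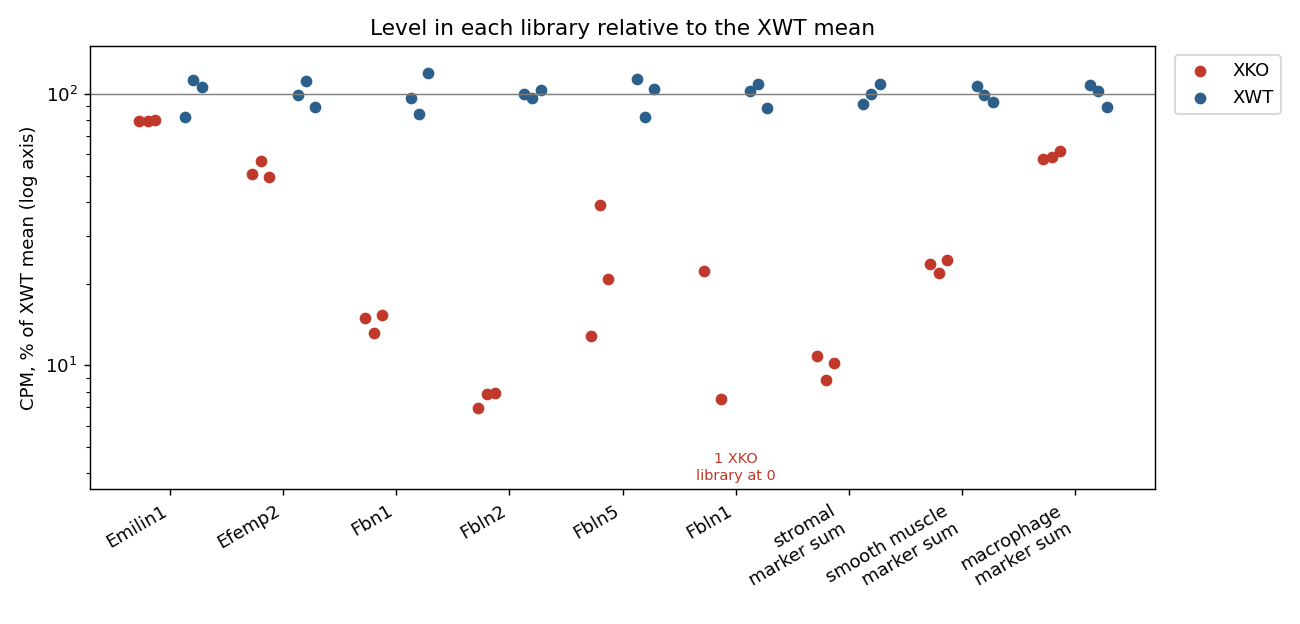
CPM of each tested gene and of 3 summed marker lists in each library, as percent of the XWT mean (y axis, log scale; grey line at 100%); points are XKO and XWT libraries. Fbln2 in XKO lies below the summed stromal markers (8.81% to 10.9%) in each library, and Fbn1, Fbln5, Efemp2 and Emilin1 lie above them; Fbln1 had no read in 1 XKO library.

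Most of the closest relatives of these genes had few or no reads. Of 8 further genes of the fibulin and EMILIN families, 2 were tested and 0 were called (Efemp1, Fbln7, Hmcn1, Mmrn1, Mmrn2 and Emilin3 had at most 9 counts over a group). Emilin2, the EMILIN gene known from blood and immune cells, averaged 172 ± 2.57 CPM in XKO and 175 ± 5.70 CPM in XWT (SD, n = 3 each). The fold change on the log2 scale was -0.02 ± 0.061 (SE; edgeR adjusted p = 0.832), and its sign turned with scaling by library size alone (0.045). Hmcn2, a hemicentin gene, averaged 0.910 ± 0.155 CPM in XKO and 0.685 ± 0.0523 CPM in XWT (edgeR adjusted p = 0.403).

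Partners of the microfibril fell in part. Of 16 genes, 11 were tested, 6 fell and 1 rose, with a median log2 fold change of -1.90. Over all tested genes the shares were 7.99% called lower and 6.00% called higher. Bgn, which encodes biglycan, a proteoglycan that binds microfibrils and tropoelastin, averaged 4.40 ± 0.607 CPM in XKO and 58.6 ± 8.43 CPM in XWT (SD, n = 3 each; log2 fold change -3.73 ± 0.128, SE; edgeR adjusted p = 4.11e-10). Hspg2, the perlecan gene, fell by 3.20 on the log2 scale (edgeR adjusted p = 4.5e-10). Ltbp1 and Ltbp2, whose proteins attach to microfibrils, fell with log2 fold changes of -2.79 and -1.90 (edgeR adjusted p = 5.88e-06 and 1.96e-06). The 1 gene that rose was Vcan, the versican gene (0.74), named after its value was seen. Fbn2, the second fibrillin gene, had 1 count in XKO and 3 counts in XWT in all.

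Most cross-linking genes fell. Of 8 tested, 6 fell and 1 rose, with a median of -1.23, against 7.99% called lower and 6.00% called higher of all tested genes. Loxl1, a lysyl oxidase tied to elastin renewal, averaged 0.834 ± 0.134 CPM in XKO and 11.6 ± 0.543 CPM in XWT (SD, n = 3 each; log2 fold change -3.79 ± 0.163, SE; edgeR adjusted p = 2.2e-09). Loxl2 and Fkbp10, which encodes a chaperone of collagen and tropoelastin, fell with log2 fold changes of -3.21 and -3.79 (edgeR adjusted p = 1.75e-08 and 2.72e-08). Lox, the main elastin cross-linking enzyme, averaged 35.4 ± 1.15 CPM in XKO and 48.7 ± 4.60 CPM in XWT (SD, n = 3 each), a smaller fall of 0.46 on the log2 scale (edgeR adjusted p = 0.00208). Tgm2, a transglutaminase gene named after its value was seen, rose by 0.34.

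Among receptors for elastin fragments and fibre proteins, single genes were called in each direction. Of 11 tested, 3 rose and 2 fell, with a median of -0.07. Of all tested genes, 6.00% were called higher and 7.99% lower. Itgav, the integrin αv chain, averaged 281 ± 1.21 CPM in XKO and 203 ± 23.4 CPM in XWT (log2 fold change 0.47 ± 0.080, SE; edgeR adjusted p = 0.00155), and its partner gene Itgb5 averaged 276 ± 7.17 CPM in XKO and 364 ± 29.6 CPM in XWT (-0.40 ± 0.071, SE; edgeR adjusted p = 0.00223). Itga9 fell by 0.58 (edgeR adjusted p = 0.00356) and Itga4 rose by 0.28 on the log2 scale (edgeR adjusted p = 0.0285). The third gene that rose was Itga5 (0.24) and was named after its value was seen. The call of Itga4 ended without any 1 of XKO 1, XKO 2, XKO 3 or XWT 2 (edgeR adjusted p of 0.0578 to 0.138).

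Of 10 genes of enzymes that can cleave elastin, 7 were tested, 1 rose and 1 fell, with a median of 0.06. Ctsk, cathepsin K, averaged 29.3 ± 1.42 CPM in XKO and 20.0 ± 0.249 CPM in XWT (log2 fold change 0.55 ± 0.079, SE; edgeR adjusted p = 0.000387), and the gelatinase gene Mmp2 averaged 4.29 ± 0.163 CPM in XKO and 10.6 ± 0.843 CPM in XWT (-1.30 ± 0.124, SE; edgeR adjusted p = 9.82e-06). Among 7 tested inhibitors of proteases, 4 fell and 1 rose, with a median of -0.61. Timp1, Timp3 and Serpine2 fell with log2 fold changes of -2.92, -2.54 and -2.07 (edgeR adjusted p = 2.62e-07, 2.25e-05 and 6.38e-06), and Slpi, a secreted inhibitor of neutrophil elastase, rose by 1.03 (edgeR adjusted p = 8.99e-06). Timp2, also lower (-0.61), was named after its value was seen. Over all 6 lists, 7 of 46 tested genes were called higher and 19 lower, against 6.00% and 7.99% of all tested genes.

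**Figure D4:**
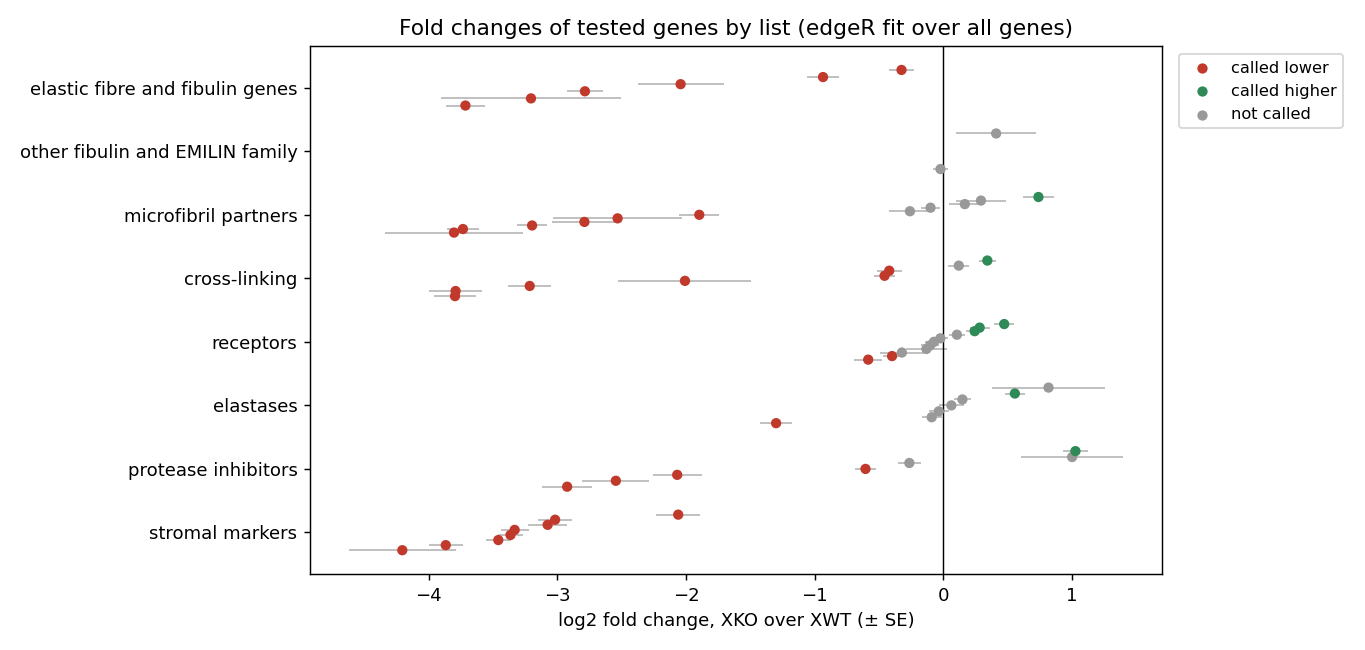
Log2 fold change of XKO over XWT (x axis, bars are SE) of each tested gene, by list; colours give the call in the edgeR fit over all genes. The 6 elastic fibre and fibulin genes spread from -3.71 to -0.33, and the receptors and elastases lie mostly near 0.

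The genes whose profile over the 6 libraries lay nearest to the mean profile of the 6 fitted genes were Ltbp2, Fscn1, Col4a1, Pdgfrb and Thbs1, at Euclidean distances of 0.258, 0.273, 0.288, 0.374 and 0.378 in centred log2 CPM, out of 10059 genes compared. They are a latent TGF-β binding protein gene, an actin bundling gene, a basement membrane collagen gene, a PDGF receptor gene and a thrombospondin gene. With only 2 groups, this likeness is mainly a like fold change, and their log2 fold changes lay between -2.15 and -1.82.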

How the data were processed

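The authors deposited 1 table: read counts per Ensembl gene, FPKM, scaled group means (a signal), and the log2 fold change and p-values of their own comparison, per the file headers. Only the counts and FPKM were used. The submitters' processing notes list Bowtie (0.12.2), mm8 and mm10 without saying what each was for; the counter, the annotation and the use of strand are not stated. Coordinates are those of the table, and 9 of the 10 genes have the same ones in GENCODE M21 (GRCm38). Promoters are from RefSeq (GRCm38.p6).

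All genes were fitted in edgeR 4.0.16 (R 4.3.3) with filterByExpr (14333 of 54532 genes kept), TMM and the robust quasi-likelihood test (4 residual degrees of freedom), with Benjamini-Hochberg adjustment over all tested genes. SE is the fold change on the log2 scale over the root of F. The script was checked on simulated counts. The 10 genes and the lists were chosen with earlier results of these data known. Each further list names up to 4 called genes of smallest p, or its 2 most abundant genes where none is called; the 5 genes most alike in profile had a mean of 5 CPM or more in 1 group. Alternatives were other scalings and filters, DESeq2 1.42.0, limma-voom (limma 3.58.1), a replicate block and leaving out each library.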

Additional observations from a re-analysis of the deposited data

How the results depend on the processing

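With scaling by library size alone 749 genes were called lower in XKO, against 1145 with TMM, and 1158 higher, against 860; the median over all genes moved from 0.00 to 0.07 and that of the elastic fibre genes from -2.41 to -2.35. Without a filter the latter was -1.42 over 9 genes, and with at least 1 CPM in 3 libraries -2.03 over 5 genes; here other genes enter the median. No pairing by replicate number was detected. Correlations were -0.0543 to -0.0359 between same-numbered libraries and 0.000392 to 0.0413 between the others. They rest on deviations from the mean of 3 libraries per group, so they cannot exclude a pairing. A replicate block gave 1068 genes higher, 1127 lower and 6 elastic fibre genes lower. Leaving out 1 library gave 274 to 2073 genes higher, 532 to 2164 lower, 4 to 6 elastic fibre genes lower with a median of -2.61 to -2.27, 5 to 8 related genes higher and 17 to 20 lower, and 8 stromal markers lower each time. The highest counts over all genes came without XWT 3. Emilin1 lost its call in 8 alternatives and Fbln1 in 2. With at least 1 CPM in 3 libraries Fbln1 was not fitted and so had no call. Its log2 fold change ran from -4.42 without XKO 1 to -2.66 without XKO 2. The elastic fibre genes were chosen from this comparison, so calls that were kept say nothing about stability. Emilin2 turned sign with library size alone (0.045) and without XWT 2, and lay between -0.040 and 0.0028 with 1 library left out. Genes with few reads (Fbln1, Mfap2, Mfap4, Mfap5 and Eln) are limited by counting error. The cause of the other changes was not tested.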
